A study of Caenorhabditis briggsae with 10 samples.

Results

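In Caenorhabditis briggsae held at 4 °C, 70 of 23175 measured genes had transcript levels at least 2-fold lower after cold in the temperate strain HK104, while their mean level after cold in the tropical strain AF16 was within 1.5-fold of its control, both on a scale to which 0.5 reads per 1000000 were added. The 70 genes were selected on the measured counts of both strains. Counts were divided by the library total and scaled to 1000000 reads (CPM), and R was defined for each strain as the log2 ratio of mean cold to mean control CPM after adding 0.5 CPM to each mean. A member needed R of -1 or less in HK104, R within a 1.5-fold band around no change in AF16, a mean of at least 5 CPM in HK104 controls, and both HK104 cold libraries below both HK104 control libraries. The limit of 150 members was not reached. Because the HK104 and AF16 values chose the members, every parental value below describes them and supports nothing about them. The hybrid libraries were not used in the choice.

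C. briggsae is a self-fertile nematode related to C. elegans, and AF16 and HK104 are wild-type strains. Worms of both strains and of an AF16/HK104 hybrid were synchronized to the mid or late L4 larval stage and cultured at 20 °C for 24 hours. Cold worms were then kept at 4 °C for 60 hours, whereas control worms were collected without that period, so a cold response also contains 60 hours of elapsed time. The groups were HK104 cold, HK104 control, AF16 cold and AF16 control with 2 libraries each, and hybrid cold and hybrid control with 1 library each. No separate cultures are named for the replicates, so p-values measure the spread between these libraries, which may be technical. Total counts were 15360979 to 18362210 per parental library, and the hybrid had 6008659 cold and 5334965 control reads assigned to an allele. In the descriptions, cold replicate 1 of both HK104 and AF16 bears an unexplained suffix, and the second AF16 cold library names another sequencing lane.

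A transcript level reflects synthesis and decay, and in an ectotherm both processes slow as temperature drops. Counts give a transcript's share of the RNA pool, so a lower value after cold is relative to the other transcripts of the same worms. Strains can differ in such a response through sequence changes next to a gene, which act on the allele that carries them, or through diffusible factors, which act on every allele in the cell. In a hybrid, both alleles meet the same cells and the same cold. The deposited tables identify genes by WormBase numbers without names, and none of these numbers matched the available gene table, so the roles, positions and sequences of the members are not given. The whole-worm label could not be set against cell type markers for the same reason. In whole worms, fewer cells of a type and less RNA per cell cannot be told apart.

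The members were a small share of what cold lowered in HK104. Of 8496 genes with at least 5 CPM in HK104 controls, 1327 had R of -1 or less in HK104, and 1325 of these had no overlap between cold and control libraries. In AF16, 1252 of the 1325 lay below the 1.5-fold band, 3 lay above it and 70 lay inside it, which is 5.28%. R in HK104 ranged over the members between -2.77 and -1.01 with a median of -1.31, and 47 members lay above -1.5. R in AF16 ranged between -0.58 and 0.49 with a median of -0.44. It was below 0 in 62 members, above 0 in 7 and exactly 0 in 1. For all 8496 genes the median R was 0.13 in HK104 and 0.14 in AF16.

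Both limits cut through closely spaced genes. The 3 members nearest the HK104 limit had R of -1.01, -1.01 and -1.02, and the 3 nearest genes outside it had -0.99, -0.98 and -0.98. At the lower edge of the AF16 band the nearest members had R of -0.58, -0.57 and -0.57 in AF16, and the nearest genes outside had -0.59, -0.59 and -0.62. The upper edge was sparse, with members at 0.49, 0.34 and 0.22 and excluded genes at 0.62, 0.68 and 0.98. With 44 members below -0.4 in AF16, most of the set stands toward the lower edge of the band.

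**Figure D1:**
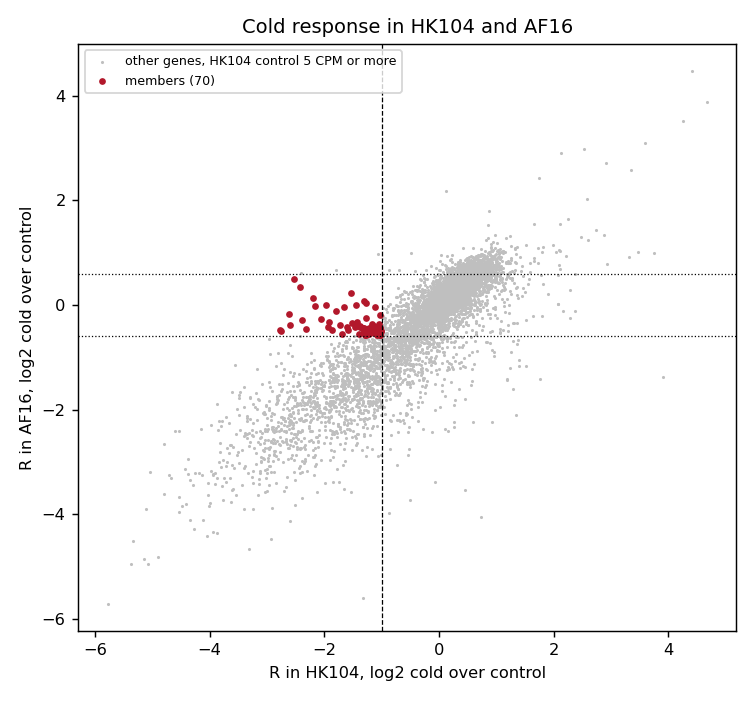
Cold response R (log2 of mean cold over mean control CPM, 0.5 added) in HK104 on the horizontal axis and in AF16 on the vertical axis, for genes with at least 5 CPM in HK104 controls. The 70 members in red fill the window left of -1 (dashed) between the dotted band limits, and 62 of them lie below 0 in AF16, above the 1252 genes that also lay below the band in AF16.

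The members were mostly transcripts of low level. Their mean CPM had a median over members of 2.97 in HK104 cold, 8.64 in HK104 control, 6.41 in AF16 cold and 8.67 in AF16 control libraries. Mean HK104 control levels ranged from 5.06 to 1175 CPM, with the upper quartile at 13.5 CPM. The lowest HK104 control library exceeded the highest HK104 cold library by a median of 0.98 on the log2 scale, and by at least 1 in 33 members. Replicates of the members lay further apart than those of all 8496 genes. The median absolute log2 difference between replicates was 0.46 for members and 0.28 for all genes in HK104 cold, 0.30 and 0.09 in HK104 control, 0.50 and 0.44 in AF16 cold, and 0.28 and 0.15 in AF16 control libraries.

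**Figure D2:**
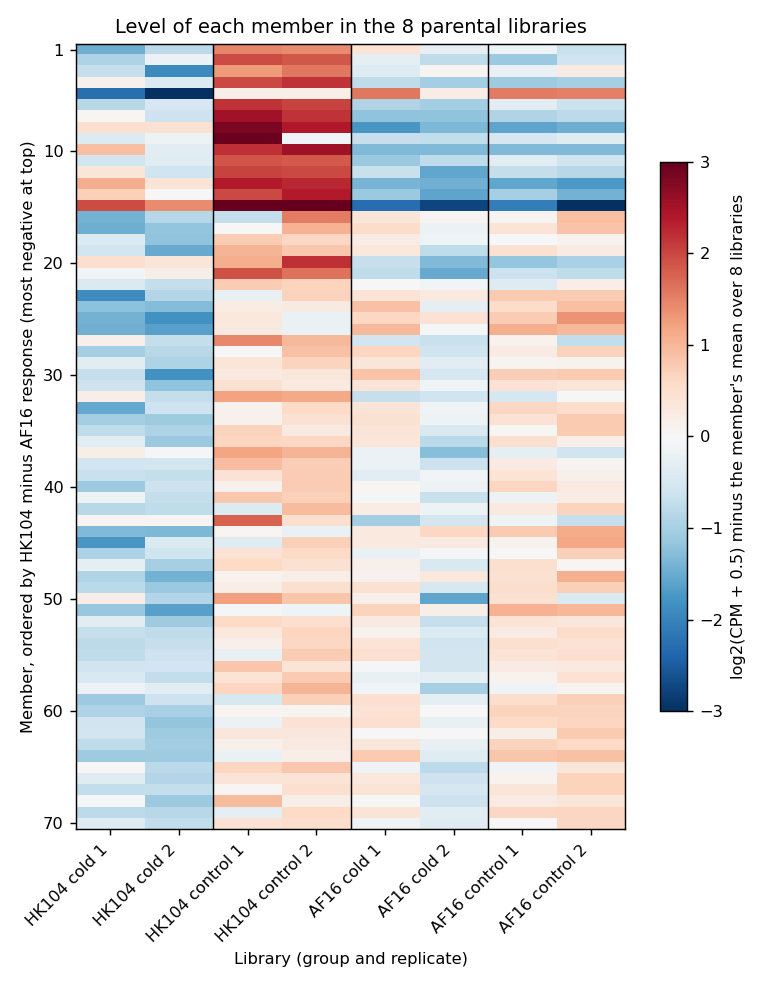
Level of each of the 70 members (rows) in the 8 parental libraries (columns), as log2 of CPM plus 0.5 minus the member's own mean over the 8 libraries, with colours limited to -3 and 3. Rows run from the most negative difference between HK104 and AF16 responses at the top (-3.02) to the least negative at the bottom (-0.46). The HK104 cold columns are low against the HK104 control columns in every row, and in most of the upper rows the AF16 columns are low with and without cold.

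The smallest HK104 ratio belonged to WBGene00042505. It had 0.76 and 0.25 CPM in HK104 cold and 6.41 and 6.36 CPM in HK104 control libraries, against 17.7 and 6.59 CPM in AF16 cold and 17.4 and 16.7 CPM in AF16 control libraries. Only the second AF16 cold library stood below its controls, whereas both HK104 cold libraries were far below theirs. Every HK104 library was below every AF16 library. Its fitted log2 cold response was -3.67 ± 0.52 (SE) in HK104, with an adjusted p of 0.00075 (edgeR quasi-likelihood test, Benjamini-Hochberg), and -0.63 ± 0.38 in AF16, with an adjusted p of 0.28. The AF16 response was -1.31 without the first AF16 cold library (adjusted p of 0.025) and 0.027 without the second (adjusted p of 0.97).

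The most abundant member, WBGene00038270, had 621 and 530 CPM in HK104 cold and 1244 and 1106 CPM in HK104 control libraries. In AF16 it had 487 and 227 CPM after cold and 450 and 363 CPM in controls. The HK104 groups did not overlap, and in AF16 the first cold library lay above both controls and the second below both. The fitted log2 response was -1.05 ± 0.28 in HK104 (adjusted p of 0.024) and -0.32 ± 0.28 in AF16 (adjusted p of 0.47). The HK104 call was lost with total counts and without any of the 4 HK104 libraries, and the AF16 response was -0.78 without the first AF16 cold library (adjusted p of 0.018) and 0.23 without the second (adjusted p of 0.42).

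Across all members, the test fitted to 13503 genes called 64 of 70 lower after cold in HK104, where 16.6% of all genes tested were called lower; the choice of members used this contrast. The median fitted log2 response of the members was -1.47 in HK104, against 0.01 for all genes, and the 6 members not called had adjusted p-values of up to 0.13. Some of these values rest on a single library. WBGene00031172 had 0.83 and 1.07 CPM in HK104 cold libraries and 13.0 and 1.16 CPM in HK104 control libraries. Its second control lay beside the cold libraries, and the fitted log2 response was -2.91 ± 0.87 (edgeR adjusted p of 0.039), against -0.29 without the first control (adjusted p of 0.85). Leaving out the second HK104 cold library left 32 members called, and leaving out the second HK104 control library left 34.

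In AF16, 1 of 70 members was called lower after cold, where 20.1% of all genes tested were called lower, and 12 had an unadjusted p under 0.05, where 34.4% of all genes did. The called member was WBGene00035192, with 19.3 and 13.8 CPM in AF16 cold and 26.1 and 23.0 CPM in AF16 control libraries, and with 14.4 and 14.7 CPM in HK104 cold and 41.7 and 36.7 CPM in HK104 control libraries. Cold libraries were below controls in both strains, by a log2 response of -0.67 ± 0.22 in AF16 (edgeR adjusted p of 0.049) and -1.45 ± 0.22 in HK104 (adjusted p of 0.0012). This call in AF16 was lost in 10 of 14 alternative settings. Without the first AF16 cold library, 15 of 70 members were called lower in AF16, where 20.5% of all genes tested were.

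The 2 AF16 cold libraries did not show the same picture. Relative to mean AF16 controls, the median member stood at -0.13 on the log2 scale in the first AF16 cold library and at -0.70 in the second. The corresponding medians over all 8496 genes were 0.05 and 0.08. The ratios and counts in this paragraph use library totals, whereas the tests also applied TMM factors. These were 1.14 and 0.95 for the first and second AF16 cold libraries, and 0.99 and 0.97 for the AF16 controls. Applying them lowers the first cold library and raises the second against controls, for members and all genes alike. The second library was below the first in 58 of 70 members, against 58.0% of all 8496 genes. No member lay at -1 or less in the first AF16 cold library, whereas 14 did in the second. The 1.5-fold band held both AF16 cold libraries in 23 members. Both AF16 cold libraries were below both AF16 controls in 32 of 70 members, against 28.0% of all 8496 genes. In HK104 the corresponding medians of the members were -1.24 in the first cold library and -1.5 in the second, against 0.11 and 0.12 for all genes. Whether the suffix or the lane in the descriptions has a part in the difference between the AF16 cold libraries was not tested.

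**Figure D3:**
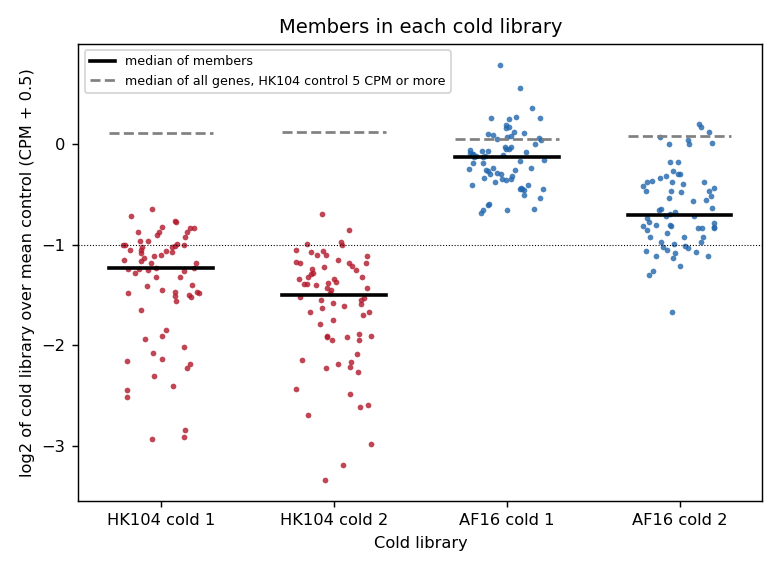
Log2 ratio of each cold library to the mean of its strain's control libraries (0.5 CPM added) for the 70 members, 1 point per member. Black bars are medians of members (-1.24 and -1.5 in HK104, -0.13 and -0.70 in AF16), grey dashes are medians of all genes with at least 5 CPM in HK104 controls, and the dotted line marks -1.

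The direct test of the difference between the HK104 and AF16 responses called 2 of 70 members, where 0.0592% of all genes tested were called lower, and gave 20 an unadjusted p under 0.05, where 7.24% of all genes had one. The members were chosen for a difference of this kind. The median fitted difference was -0.86 on the log2 scale, and 68 members did not pass.

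WBGene00038120 had 6.41 and 4.22 CPM in HK104 cold and 24.2 and 27.8 CPM in HK104 control libraries, against 3.19 and 2.61 CPM in AF16 cold and 2.51 and 2.67 CPM in AF16 control libraries. Its HK104 cold libraries lay between the HK104 controls and all AF16 libraries, and AF16 cold and control libraries overlapped. The fitted difference of the responses was -2.39 ± 0.39 on the log2 scale (edgeR adjusted p of 0.033). HK104 stood above AF16 by 3.32 ± 0.29 without cold (adjusted p of 0.00011) and by 0.93 ± 0.28 after cold (adjusted p of 0.056).

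WBGene00038823 had 0.32 and 0.82 CPM in HK104 cold and 5.78 and 5.55 CPM in HK104 control libraries, against 2.54 and 1.42 CPM in AF16 cold and 1.59 and 0.93 CPM in AF16 control libraries. HK104 libraries were the highest of the 8 without cold and the lowest after it. The fitted difference of the responses was -3.84 ± 0.69 (edgeR adjusted p of 0.045). The strain difference was 2.17 ± 0.45 without cold (adjusted p of 0.016) and -1.68 ± 0.52 after cold (adjusted p of 0.063). Each call of these 2 members was lost in 10 of 14 alternative settings, without a change of sign.

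The members differed widely in their AF16 level. In AF16 controls it was under 1 CPM in 11 members, between 1 and 5 CPM in 12 and at least 5 CPM in 47. In the first 11, the median of mean CPM was 1.20 in HK104 cold, 6.37 in HK104 control, 0.29 in AF16 cold and 0.30 in AF16 control libraries. Median R was -2.05 in HK104 and -0.12 in AF16. The added 0.5 CPM draws R toward 0 at such levels, most strongly in the members with the fewest AF16 counts. WBGene00303153 stayed inside the band with 2 and 3 counts in AF16 control libraries and 0 in each AF16 cold library. Of these 11, 4 had 3 counts or fewer in every AF16 library, so no AF16 ratio is given for them singly, although the medians of R include them. Among the 4, WBGene00039731 had 1.84 and 1.83 CPM in HK104 cold and 11.4 and 8.44 CPM in HK104 control libraries, and 0 and 3 counts in AF16 cold and 1 and 2 counts in AF16 control libraries. In the 12 members between 1 and 5 CPM, median R was -1.41 in HK104 and -0.38 in AF16. In the 47 members of at least 5 CPM in AF16 controls, median R was -1.26 in HK104 and -0.47 in AF16, and the median log2 ratio to controls was -0.13 in the first and -0.84 in the second AF16 cold library.

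The comparison of strains within a condition shares libraries with the cold responses, and the choice of members used those libraries. Without cold, 17 of 70 members were called higher in HK104 than in AF16, where 3.01% of all genes were, and 1 was called lower, where 4.0% of all genes were. Of the 17, 10 had under 1 CPM in AF16 controls, 6 had between 1 and 5 CPM and 1 had at least 5 CPM. After cold, 8 were called higher in HK104, where 7.08% of all genes were, and 15 lower, where 5.58% of all genes were. All 15 belonged to the members with at least 5 CPM in AF16 controls. Of the 70 members, 8 were called higher in HK104 in both conditions, 9 were called higher without cold and not after it, 14 were not called without cold and called lower after it, and 38 were called in neither condition. By ranges, both HK104 controls exceeded both AF16 controls in 33 members (40% of all 8496 genes) and lay below both in 15 (22%), whereas both HK104 cold libraries exceeded both AF16 cold libraries in 15 members (20.4%) and lay below both in 40 (13.7%).

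WBGene00024619 showed the widest strain difference without cold on the log2 scale of mean CPM plus 0.5, at 46.1 and 31.3 CPM in HK104 cold and 134 and 111 CPM in HK104 control libraries, against 1.95 and 1.25 CPM in AF16 cold and 2.33 and 0.99 CPM in AF16 control libraries. HK104 libraries were far above AF16 libraries in both conditions. HK104 exceeded AF16 in this gene by a fitted log2 difference of 4.66 ± 0.37 after cold (edgeR adjusted p of 6.2e-05) and 6.21 ± 0.39 without cold (adjusted p of 2.0e-05). The member called lower in HK104 without cold was WBGene00031821, at 7.48 and 7.0 CPM in HK104 controls against 16.4 and 15.8 CPM in AF16 controls, with a log2 difference of -1.15 ± 0.26 (adjusted p of 0.024), a call lost in 5 of 14 alternative settings. After cold it had 3.24 and 2.14 CPM in HK104 against 12.6 and 8.77 CPM in AF16.

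In the hybrid, the members were mostly lower in the cold than in the control library. Of the 70 members, 62 had at least 20 allele-assigned reads in 1 or both hybrid libraries. Of these 62, 13 reached that minimum in the control library alone, and a gene admitted in this way had to be lower in cold, so the counts below describe the set. The log2 ratio of the cold to the control library was below 0 in 58 of the 62, where 48.1% of all 9674 genes with that minimum were, and at -1 or less in 30, where 19.4% of all such genes were. Their median was -0.88, against 0.03 for all such genes. With at least 20 reads in each library, which admits no gene through 1 library alone, 48 members had a median of -0.72, and 45 lay below 0 (43.5% of all genes with that minimum) and 19 at -1 or less (11.4% of all such genes). Over all 70 members the median was -0.79, with 63 below 0 and 32 at -1 or less. With 1 library per condition these ratios have no replicate check, and no p-value is given for them.

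**Figure D4:**
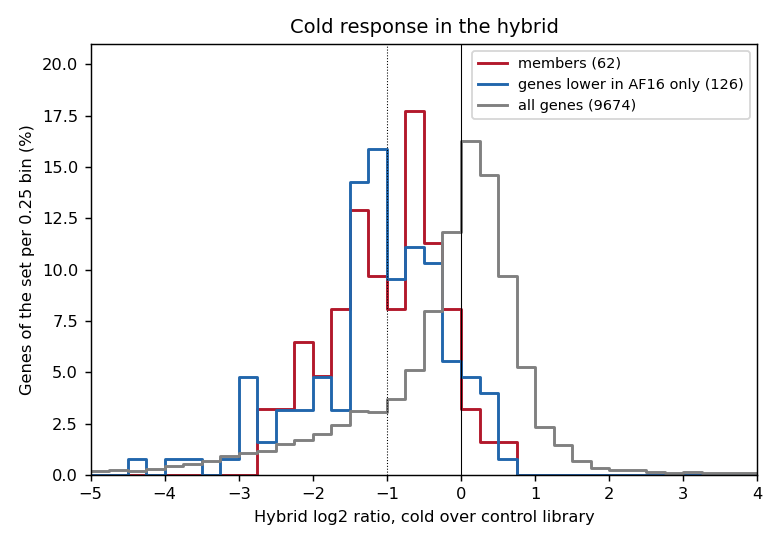
Distribution of the hybrid log2 ratio of the cold to the control library, as the percentage of each set per bin, for members (62), genes chosen by the mirrored rule as lower in AF16 and flat in HK104 (126) and all genes (9674), each with at least 20 assigned reads in 1 or both libraries. Members and mirror genes both lie left of 0, with medians of -0.88 and -1.04, and all genes centre at 0.03. The mirror set was cut to the 150 genes with the largest differences, whereas the 70 members were not cut, so the choices are unlike. Genes of any set could reach the minimum through 1 library alone.

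Parental responses of the same 62 members were taken as mean log2 CPM of cold minus control libraries. TMM scaling and a prior count of 2 were used, as for the hybrid ratios. These parental values are neither R nor the fitted responses. For WBGene00042505 in AF16, the value was -0.74 in this form, -0.47 as R and -0.63 as fitted. The hybrid libraries are smaller, so the same prior count draws hybrid ratios of low-level genes toward 0 more strongly than parental ones. The hybrid value stood between the parents and nearer to HK104 in 17 members, and between them and nearer to AF16 in 15. It stood above both in 20 and below both in 10. The parental libraries chose the members, so these counts partly follow from the choice. The unequal pull toward 0 also enters them, to an extent that was not tested. No share over all genes is set beside them, and the position was not tested. The mirrored rule, which took 150 genes (its limit) lower in AF16 and flat in HK104, gave 126 genes with the minimum of 20 reads, a median hybrid log2 ratio of -1.04 and 68 genes at -1 or less. The 985 genes that had R of -1 or less in both parents and had the minimum gave a median of -2.03. They also had at least 5 CPM in HK104 controls and no overlap between HK104 cold and control libraries, with neither asked of AF16. The lowest hybrid ratio among members with at least 20 reads in each library was that of WBGene00024651. It had 26 cold and 73 control reads of the HK104 allele and 15 cold and 76 control reads of the AF16 allele, with a log2 ratio of -2.03 for both together. In AF16 worms it had 12.6 and 11.5 CPM after cold and 16.3 and 16.1 CPM in controls, with both cold libraries below both controls. The highest ratio was 0.63, in WBGene00036678, with 26 cold and 19 control reads of the HK104 allele and 13 cold and 2 control reads of the AF16 allele. HK104 worms had 2.79 and 7.74 CPM of it after cold and 8.17 and 17.6 CPM in controls.

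Separated by allele, the HK104 allele had at least 20 reads over both libraries in 60 members. Its log2 ratio was below 0 in 54 of them (47.0% of all genes) and at -1 or less in 29 (17.2% of all genes), with a median of -0.96. The AF16 allele had that many reads in 50 members. Its ratio was below 0 in 44 (47.4% of all genes) and at -1 or less in 14 (17.2% of all genes), with a median of -0.71. In the 48 members where both alleles could be read, both ratios were below 0 in 39 (37.3% of all genes). In AF16 worms, the median fitted log2 response of the 70 members was -0.60, and R was below 0 in 62 of them. The HK104 allele had the lower ratio of the pair in 28 of 48 members, or 58.3%, against 49.0% of all genes, with a median difference of HK104 minus AF16 of -0.13 on the log2 scale. Among mirror genes the HK104 allele had the lower ratio in 40 of 108, or 37.0%, with a median difference of 0.21.

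**Figure D5:**
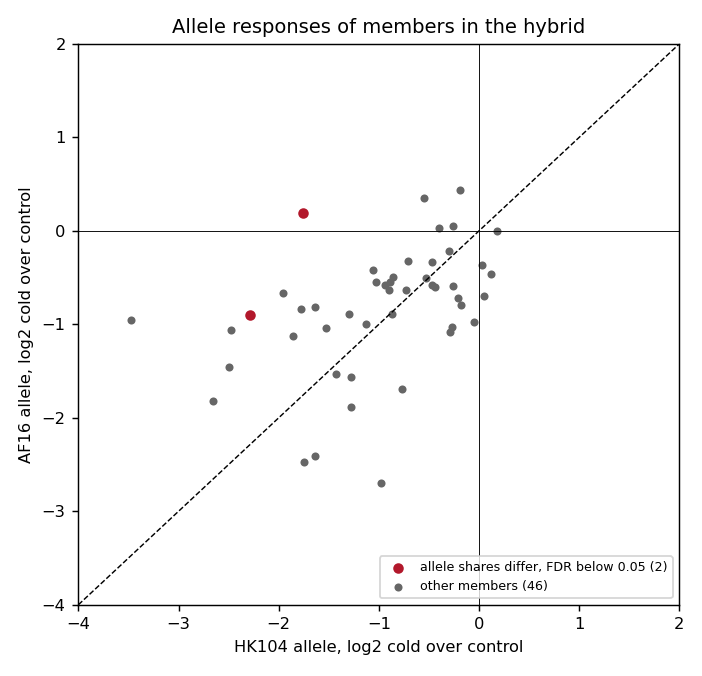
Log2 ratio of cold to control reads in the hybrid for the HK104 allele (horizontal) and the AF16 allele (vertical) in the 48 members with at least 20 reads of each allele, with the line of equal ratios dashed. Most points lie below 0 on both axes (39 of 48). In red, above the dashed line, are the 2 members called by the Fisher test of allele shares described below. That test needed at least 20 reads in each library, so some plotted members, WBGene00040338 among them, were not tested.

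A two-sided Fisher exact test of the allele reads in the 2 hybrid libraries was run for 8100 genes with at least 20 reads in each library and adjusted over them. It compares these libraries, not the conditions, and covers counting error alone. It called 2 of 48 members, where 5.54% of all genes tested were called, and 13 members had an unadjusted p under 0.05, where 17.8% of all genes did. These 48 are not the same set as the 48 members where both alleles could be read. They include WBGene00038270 and WBGene00042712, which had no AF16 reads in either library and so could not be called. They leave out members with few cold reads, such as WBGene00040338 with 12 cold and 72 control reads. WBGene00038120 had 37 HK104 and 19 AF16 reads in the cold library and 112 HK104 and 14 AF16 reads in the control library. The HK104 share was 66.1% in cold (95% Wilson interval 53.0 to 77.1) and 88.9% in control (82.2 to 93.3), with an adjusted p of 0.018. The log2 ratio was -1.76 for the HK104 allele and 0.20 for the AF16 allele, and parental worms had responses of -2.32 ± 0.27 in HK104 and 0.07 ± 0.29 in AF16. WBGene00038444 had 20 HK104 and 44 AF16 reads in cold and 91 HK104 and 72 AF16 reads in control, with HK104 shares of 31.2% (21.2 to 43.4) and 55.8% (48.2 to 63.2) and an adjusted p of 0.027. Both of its alleles were lower in cold, with log2 ratios of -2.29 for HK104 and -0.90 for AF16. For WBGene00038823, the other member called in the difference of the parental responses, the reads were 6 HK104 and 19 AF16 in cold and 37 HK104 and 36 AF16 in control, with an adjusted p of 0.23.

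The reads of each allele in the hybrid were summed by the level in AF16 controls. In the 11 members under 1 CPM in AF16 controls, 124 cold and 364 control reads were of the HK104 allele, against 11 cold and 36 control reads of the AF16 allele. In the 12 members between 1 and 5 CPM there were 283 cold and 789 control reads of the HK104 allele and 122 cold and 233 control reads of the AF16 allele. In the 47 members of at least 5 CPM, the sums were 2330 cold and 3542 control reads of the HK104 allele and 2426 cold and 3204 control reads of the AF16 allele. WBGene00024619 alone gave 158 cold and 460 control reads of the HK104 allele, against 10 cold and 56 control reads of the AF16 allele. The median hybrid log2 ratio was -2.14 in the members under 1 CPM, -1.08 in those between 1 and 5 CPM and -0.68 in those of at least 5 CPM. No minimum of reads was applied to these medians, unlike those given above for members with at least 20 reads. WBGene00030846, under 1 CPM in AF16 controls, had only 4 cold and 7 control reads in the hybrid. Over the 61 members with at least 20 control reads, the log2 allele ratio was set against the log2 strain difference in controls. The signs were the same in 38 members, or 62.3%. They were the same in 58.4% of all 7724 genes with that minimum and at least 5 CPM in HK104 controls. The Pearson correlation of allele ratio and strain difference was 0.73 over these members and 0.28 over all such genes. The genes share libraries and are not independent. A strain difference of at least 1 on the log2 scale was present in 19 of the 61 members and in 363 of the 7724 genes. A wider spread can raise a correlation, so these correlations are not on equal terms. Of the 19 members, 18 had the same sign in the hybrid, or 94.7%, against 85.1% of the 363 genes. WBGene00038270 had 42 cold and 77 control reads of the HK104 allele and none of the AF16 allele. AF16 worms had at least 227 CPM of it, so reads assigned to an allele do not measure level there. This gene is nevertheless included in the sums of the 47 members and in the correlation. It also counts as a same sign among the 61 and the 19 members.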

How the data were processed

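The authors deposited raw read counts for 23175 WormBase gene numbers in 8 parental libraries. A second deposited count table has 4 hybrid columns named by strain and condition, read here as allele-assigned reads; how reads were assigned is not given in the sources used here. The authors also deposited edgeR tables with a log2 fold change, a mean log2 CPM, a score (F) and a raw p-value for each gene, per the file headers, which were set beside the present fit and not used for any value. Cutadapt, HISAT2 2.2.0, HTSeq 0.11.1 and edgeR are named, per the submitters' processing notes; their settings, the genome build, annotation and use of strand are not given in the sources used here, so reads of near-identical or overlapping genes may be split. Per the labels' protocols, the library kit was KAPA RNA hyper prep. Replicate numbers follow the titles; the descriptions number the libraries otherwise.

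CPM used library totals. Tests used edgeR 4.0.16 (R 4.3.3, limma 3.58.1; quasi-likelihood F test, TMM scaling, filterByExpr with a minimum count of 10) on the 13503 genes retained, 4 groups in 1 fit, with p-values adjusted over all genes per comparison and calls at an FDR under 0.05. The script was tested on simulated data. Hybrid log2 ratios used TMM scaling and a prior count of 2, and Wilson intervals cover counting error only. DESeq2 1.42.0 gave alternatives; Python 3.11.15, pandas 2.3.3, SciPy 1.17.1 and matplotlib 3.10.9 did the rest. The members, lists and tests were chosen with earlier results of these data known. Named genes were those with the smallest R in HK104 or smallest difference of R (8 each), the 8 most abundant, those called in the difference or allele test, the 5 lowest and highest hybrid ratios, and those next to the limits. Gene lists and cell type markers needed names and could not be used, since 0 gene numbers matched the 22727 genes of the supplied CB4 table.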

Additional observations from a re-analysis of the deposited data

Results flagged for a closer look

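The cold response differed between HK104 and AF16 in 2 members by the test of the difference itself (edgeR, adjusted over 13503 genes). For WBGene00038120 the log2 difference of HK104 minus AF16 was -2.39 (adjusted p of 0.033), and for WBGene00038823 it was -3.84 (adjusted p of 0.045). The members were chosen on this difference, and each call was lost in 10 of 14 alternatives.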

How the results depend on the processing

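The number of members called lower in HK104 was 64 as reported, 45 to 69 over the other scalings, filters and tests, and 32 to 67 when 1 library was left out, where the lone library of a group is assumed to vary like the others. Of the log2 responses printed for single genes, 3 in AF16 reversed: that of WBGene00038120 was -0.020 with upper-quartile scaling and -0.0026 to 0.27 without 1 library, and without 1 library that of WBGene00038270 was -0.78 to 0.23 and that of WBGene00042505 -1.31 to 0.027. Members called in AF16 (1 as reported) numbered 0 with DESeq2 size factors, total counts, no filter or the DESeq2 Wald test, where 1, 3, 3 and 1 members had an unadjusted p under 0.05, 2 with upper-quartile scaling, and 0 to 15 without 1 library. Members called in the difference (2 as reported) numbered 1 with DESeq2 size factors, 0 with upper-quartile scaling or total counts, where 22 and 19 had an unadjusted p under 0.05, 5 with no filter or the DESeq2 Wald test, and 0 to 2 without 1 library. DESeq2 size factors moved the median AF16 response of all genes to 0.11, against -0.06 with TMM, and that of the members to -0.42, against -0.60. Upper-quartile scaling moved the median HK104 response of all genes to -0.16, against 0.01, and that of the members to -1.66, against -1.47. Strain differences called numbered 12 to 24 after cold (12 without the first HK104 cold library) and 13 to 24 without cold when 1 library was left out. The rule itself gave 33 to 150 members without 1 library, where 150 is its limit and further genes may have met it. It gave 33 without the first AF16 cold library and 150 without the second. It gave 135 without the first HK104 cold library and 106 without the first HK104 control library. Of these 4 lists, 30, 63, 66 and 60 members, in that order, were among the 70. Hybrid members at -1 or less (30 as reported) numbered 17 for the AF16 allele alone over all 62 members, whether or not they had 20 reads of that allele, 19 with at least 20 reads in each library, a setting chosen after seeing the data, and 16 to 69 for members chosen without 1 parental library; the median hybrid ratio was then -1.37 to -0.61. The causes of these shifts were not tested.

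With a replicate block, 68 members were called lower in HK104, 2 in AF16 and 4 in the difference, and 22 and 28 between strains without and after cold. Correlations of same-numbered libraries between groups ran from 0.0031 to 0.34, so the numbers were not taken as pairing. The highest was between AF16 cold and HK104 cold, the groups whose replicate 1 bears the unexplained suffix. Whether the suffix has a part in it was not tested. Levels near 5 CPM, 2 libraries a group and 1 hybrid library per condition limit what could be detected.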
